A study of Mus musculus with 4 samples.

Results

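The 9 genes described here are receptors of natural killer (NK) cells in the ascites of mice with ovarian tumours. They are Klra4, Klra7 and Klra8 (the Ly49 family members Ly49D, Ly49G and Ly49H), Klrc1 and Klrc2 (NKG2A and NKG2C), Klrd1 (CD94), Klrk1 (NKG2D), Klre1 and Ncr1 (NKp46). They were chosen by name as NK receptor genes, and all 9 were found among the 29835 genes of the count matrices. Ncr1 is an immunoglobulin-type receptor, and the other 8 are C-type lectin-like receptors of the NK gene complex.

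NK cells read the surface of other cells through receptors that either restrain or trigger killing. Inhibitory receptors such as Ly49G and NKG2A carry tyrosine motifs that recruit the phosphatases Ptpn6 and Ptpn11, and they bind class I molecules, classical ones in the case of Ly49G and Qa-1 (H2-T23) in the case of NKG2A. Activating receptors have no such motif and signal through adaptors: Ly49D and Ly49H through Tyrobp (DAP12) and Hcst (DAP10), NKG2D through the same pair, and NKp46 through Fcer1g and Cd247. NKG2C is an activating counterpart of NKG2A, and CD94 is the partner chain that NKG2A and NKG2C need to reach the surface. Each NK cell expresses its own assortment of Ly49 genes, and several of the lectin receptors are also found on activated CD8 T cells.

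The cells came from ascites of C57BL/6 mice bearing ID8-Trp53-/- cells, which are ovarian surface epithelial cells of the mouse that were made deficient in Trp53 and were injected into the peritoneum. All 4 groups carried these tumour cells, and treatment began 7 days after engraftment and ended at about 3 mL of ascites. The control group received vehicle (DMSO) and an IgG2a isotype antibody. The BTYNB group received BTYNB, a small molecule directed at the RNA-binding protein IGF2BP1, with the isotype antibody. The anti-PD-1 group received the PD-1 blocking antibody RMP1-14 with DMSO, and the combination group received BTYNB and anti-PD-1. BTYNB is labelled 50 mg/kg and each antibody 100 ng per dose, and the methods give other amounts, which could not be reconciled here. Each group is 1 library made from pooled animals, so no difference between groups has a replicate check and no p-value is given. Every interval below is a 95% interval that covers counting error only.

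After filtering, the libraries held 7042 to 18283 cells, with a median of 2622 unique molecular identifiers (UMIs, 1 per captured RNA molecule) per cell in the BTYNB library and of 6944 to 9510 in the other 3. The smallest deposited cell had 5115 UMIs in the combination, 4438 in the control and 3533 in the anti-PD-1 library, whereas cells of the BTYNB library went down to 869. Between libraries, 13 cell barcodes were shared over all pairs. Few NK and CD8 T cells were read in the control and anti-PD-1 libraries. CD8 T cells of the BTYNB library, gated as below, had a median of 2333.5 UMIs, under the lowest counts of the other libraries. The part of these lowest counts in the cell numbers was not tested. The comparison is between the BTYNB and the combination library. It asks how the receptors differed in lymphocytes when anti-PD-1 was added to BTYNB.

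The promoters of the 3 Ly49 genes are shown first, because these genes are compared below for detection in the same cells. The windows run from 250 bases before to 50 bases after each RefSeq gene start, in build GRCm38.p6, on the minus strand of chromosome 6, and are written 5′ to 3′. Capitals in the 3 Ly49 windows mark stretches of at least 8 bases that occur in all 3 windows, wherever they lie.
Klra4, chr6:130067222-130067521: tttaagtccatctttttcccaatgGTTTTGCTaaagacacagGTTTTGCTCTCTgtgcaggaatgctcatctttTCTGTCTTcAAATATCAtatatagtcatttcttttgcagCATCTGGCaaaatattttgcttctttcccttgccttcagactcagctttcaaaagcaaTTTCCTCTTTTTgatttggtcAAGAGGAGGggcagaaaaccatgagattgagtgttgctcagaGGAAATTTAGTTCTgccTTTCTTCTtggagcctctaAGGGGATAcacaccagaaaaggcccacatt
Klra8, chr6:130129849-130130148: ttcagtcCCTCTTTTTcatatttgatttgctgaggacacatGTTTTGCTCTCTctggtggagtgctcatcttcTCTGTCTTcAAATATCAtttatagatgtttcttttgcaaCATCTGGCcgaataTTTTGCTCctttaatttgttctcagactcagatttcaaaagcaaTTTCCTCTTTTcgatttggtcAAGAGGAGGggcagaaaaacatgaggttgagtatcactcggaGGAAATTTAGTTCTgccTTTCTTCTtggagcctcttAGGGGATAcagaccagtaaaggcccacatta
Klra7, chr6:130233273-130233572: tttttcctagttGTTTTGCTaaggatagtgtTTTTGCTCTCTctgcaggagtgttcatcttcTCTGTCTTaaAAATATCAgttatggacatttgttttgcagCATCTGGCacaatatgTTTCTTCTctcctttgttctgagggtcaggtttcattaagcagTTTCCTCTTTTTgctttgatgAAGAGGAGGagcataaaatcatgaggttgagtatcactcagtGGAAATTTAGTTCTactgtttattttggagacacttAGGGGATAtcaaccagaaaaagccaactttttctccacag
Shared stretches covered 95, 103 and 94 bases of the Klra4, Klra8 and Klra7 windows, and the longest ran over 14 bases. Aligned over 300 bases, the Klra4 and Klra8 windows matched at 259 positions (86.3%), Klra4 and Klra7 at 230 (76.7%) and Klra7 and Klra8 at 231 (77.0%). All other pairs among the 8 members with a window matched at 47.0% to 55.3% of positions. Klrd1 had no entry in the promoter table.

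The NKG2D gene is printed for contrast, since its RNA was also found outside lymphocytes. Its capitals mark the RUNX core TGTGGT, searched on both strands.
Klrk1, chr6:129623815-129624114: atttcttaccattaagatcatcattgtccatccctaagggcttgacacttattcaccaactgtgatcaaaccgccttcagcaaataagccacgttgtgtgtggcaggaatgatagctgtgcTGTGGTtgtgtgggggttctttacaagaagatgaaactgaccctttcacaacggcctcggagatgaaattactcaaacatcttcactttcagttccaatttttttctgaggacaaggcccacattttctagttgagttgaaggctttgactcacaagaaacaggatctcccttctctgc
This hexamer was found in 5 of the 8 member windows (Klrc1, Klrc2, Klrk1, Ncr1 and Klre1) and in none of the 3 Ly49 windows. Among all 32851 promoter windows, 16.8% held it. The T-box motif GGTGTG was found in 1 member window, that of Klra4, and in 19.0% of all windows. These are letter matches and say nothing of binding.

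Cells were gated by UMIs. The NK gate asked for at least 2 UMIs of Klrb1c, Eomes and Tyrobp together, at most 1 of the 3 Cd3 genes, at most 2 of Lyz2 and at most 2 of Cd79a and Cd79b. It held 77 control cells, 2136 BTYNB cells, 91 anti-PD-1 cells and 514 combination cells. As a share of cells this was 0.983%, 11.7%, 0.757% and 7.30%. The CD8 T gate, at least 2 Cd3 UMIs and at least 1 of Cd8a and Cd8b1, held 8, 1230, 22 and 94 cells in the same order. Among cells of at least 5115 UMIs, the count of the smallest combination cell, the NK gate share was 13.3% in BTYNB and 7.30% in the combination.

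The data went against the name of the NK gate. Tyrobp is also expressed by myeloid cells, and 1492 of the 2136 BTYNB cells and 469 of the 514 combination cells had no UMI of Klrb1c (NK1.1) or Eomes. Of the BTYNB cells in the gate, 514 (24.1%) also met a dendritic cell gate and 321 (15.0%) a neutrophil gate. In the combination library 296 (57.6%) met the dendritic gate and 3 (0.584%) the neutrophil gate. The MHC class II gene H2-Aa had a UMI in 56.8% and 97.9% of the gated cells. At least 3 of the 9 had a UMI in 661 BTYNB cells (30.9%) and in 39 combination cells (7.59%).

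Cells of the gate with a Klrb1c or Eomes UMI are therefore given beside the whole gate, and are called Klrb1c/Eomes-positive cells. They numbered 12 in the control, 644 in the BTYNB (3.52% of cells), 6 in the anti-PD-1 and 45 in the combination library (0.639%). Among cells of at least 5115 UMIs the share was 1.81% in the BTYNB and 0.639% in the combination library. At least 3 members had a UMI in 593 of the 644 (92.1%) and in 33 of the 45 (73.3%). All 12 NK marker genes outside the rule and the members (among them Nkg7, Gzma, Prf1, Itga2, Itgam and Ccl5) had UMIs in both libraries. At least 1 of them was found in 99.1% of the BTYNB and 88.9% of the combination cells. In the rest of the gate at least 1 was found in 70.4% and 61.4%, and in the dendritic gate in 50.1% and 37.7%. This share is therefore not particular to NK cells. Ccl5 gave 7800 of the list's 22289 UMIs in the 644 BTYNB cells. Other markers were also present in Klrb1c/Eomes-positive cells. H2-Aa had a UMI in 23.4% of the BTYNB and 84.4% of the combination cells, and a keratin gene in 18.5% and 86.7%. The T-cell receptor delta gene Trdc had a UMI in 25.0% and 26.7%. Summed over each list, dendritic markers were at 565 and 1642 CPM (UMIs per 1000000 of the gate's UMIs), tumour markers at 398 and 1148 CPM, T-cell markers at 559 and 205 CPM, and the 6 macrophage markers at 18.7 and 16.3 CPM. The part of these other RNAs in the differences between the libraries was not tested.

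In the BTYNB library all 9 members were read in Klrb1c/Eomes-positive cells, and each was lower in the rest of the gate. CPM summed over these 644 cells were 757 for Klra4 (interval 723 to 792), 399 for Klra7 (375 to 425) and 1057 for Klra8 (1017 to 1099). In the remaining 1492 cells of the gate the same 3 genes were at 10.4, 7.69 and 21.3 CPM. The Klra4 UMIs of the gate thus numbered 1859 in Klrb1c/Eomes-positive cells and 81 in the others.

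For the NKG2 family and its partner, Klrd1 was at 818 CPM (782 to 854), Klrc1 at 109.9 (97.2 to 124) and Klrc2 at 123 (110 to 138) in Klrb1c/Eomes-positive BTYNB cells. Klrk1 was at 608 CPM (577 to 639), Klre1 at 659 (628 to 692) and Ncr1 at 285 (265 to 307). The rest of the gate held Klrc1, Klrc2, Ncr1 and Klre1 at 3.08 to 18.2 CPM. Klrd1 and Klrk1 were the exceptions, at 194 and 144 CPM there. Values of different genes are tag counts without length scaling and are not ranked against each other.

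**Figure D1:**
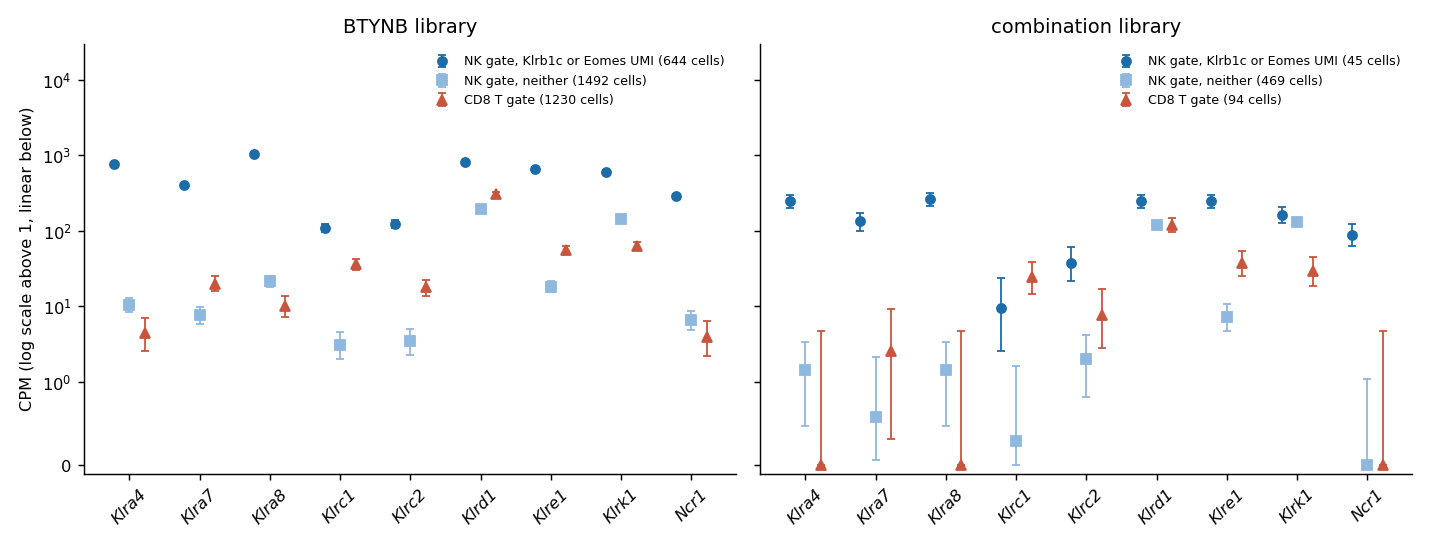
CPM (vertical axis, logarithmic above 1 and linear below) of the 9 receptor genes (horizontal axis) in 3 gates of the BTYNB library (left) and the combination library (right). Points are UMIs summed over the cells of a gate, and bars are 95% Poisson intervals. Dark circles (Klrb1c/Eomes-positive cells) lie above the pale squares (rest of the NK gate) for every gene in both panels, with the 2 closest for Klrk1 in the combination library, at 163 and 132 CPM.

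In the combination library the 45 Klrb1c/Eomes-positive cells held Klra4 at 247 CPM (202 to 299), Klra7 at 133 (101 to 172) and Klra8 at 261 (215 to 314). Klrd1 and Klre1 were each at 247 CPM, Klrk1 at 163 (127 to 206) and Ncr1 at 88.7 (62.7 to 122). Only 4 UMIs of Klrc1 were counted, 9.33 CPM (2.54 to 23.9), and 16 of Klrc2, 37.3 CPM (21.3 to 60.6). Each of the 9 values was lower than that of the BTYNB library.

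The small control and anti-PD-1 sets were read the same way. In the 12 control cells Klra7 was at 189 CPM (108 to 307), Klra8 at 107 (48.7 to 202), Klrk1 at 166 (90.6 to 278) and Klrd1 at 201 (117 to 322). In the 6 anti-PD-1 cells Klra8 was at 103 CPM (28.2 to 265), Klrk1 at 129 (42.0 to 302) and Klrd1 at 155 (56.9 to 337). Ncr1 was at 154 CPM (81.9 to 263) in the control and 155 CPM (56.9 to 337) in the anti-PD-1 cells, and the latter interval takes in the BTYNB level of 285. Intervals from so few cells span several-fold. Klrc1 was counted 0 times in the control cells, where the set floor of 3 UMIs is 35.5 CPM.

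Measured against BTYNB, all 9 members were at least 2-fold lower in CPM in the Klrb1c/Eomes-positive cells of the combination library, where 11.7% of 7195 genes with at least 50 UMIs over both libraries were at least 2-fold lower and 8.77% at least 2-fold higher. The median log2 ratio of the members was -1.70, and that of all genes was -0.03. Klrc1, Klrc2 and Ncr1 had fewer than 50 UMIs in the combination cells and passed this minimum through the BTYNB library. Values were -1.61 for Klra4 (interval -1.91 to -1.33), -1.58 for Klra7 (-2.0 to -1.20) and -2.01 for Klra8 (-2.30 to -1.74). They were -1.72 for Klrd1, -1.70 for Klrc2, -1.89 for Klrk1, -1.68 for Ncr1 and -1.41 for Klre1 (-1.71 to -1.13). Klrc1 had the lowest ratio, -3.42, with an interval of -5.44 to -2.18 that rests on 4 combination UMIs. The 12 NK markers summed moved with the members, from 9074 to 2583 CPM, a log2 ratio of -1.81 (-1.90 to -1.73), beside -1.75 for the members summed (-1.87 to -1.63).

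The size of this difference depended on the scale. The 644 BTYNB cells had a median of 2810 UMIs and the 45 combination cells of 8188, and 100 of the BTYNB cells reached the 5115 UMIs of the smallest deposited combination cell. A Klrb1c or Eomes UMI was asked for at any depth, so deeper cells could pass with lower CPM of these genes. Among the cells with a UMI of Klra4, Klra7 or Klra8, Klrb1c was at 360 CPM in BTYNB and 79.6 in the combination. Eomes was at 530.5 and 229 CPM. The part of this in the member ratios was not tested. Counted as UMIs per cell, the members summed stood at 18.4 in BTYNB and 13.7 in combination cells, a log2 ratio of -0.43. Per cell, Klre1 was at 2.52 and 2.36 UMIs (log2 ratio -0.09, interval -0.39 to 0.19) and Klra7 at 1.52 and 1.27 (-0.27, interval -0.68 to 0.12), and both intervals hold 0. Klra8 was at 4.03 and 2.49 UMIs per cell (-0.70), Klrk1 at 2.32 and 1.56 (-0.58) and Klrc1 at 0.419 and 0.0889 (-2.24). All 9 ratios were below 0 on both scales, and the share of all genes below 0 was not taken on either.

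With cells under 5115 UMIs left out of both libraries, 100 BTYNB and 45 combination cells remained. The members summed were then lower in the combination by -0.95 on the log2 scale (-1.08 to -0.83), and the NK markers by -0.67. Single members were at -0.85 for Klra4, -1.01 for Klra7, -0.74 for Klra8, -1.10 for Klrd1, -1.07 for Klrk1, -0.99 for Ncr1, -0.84 for Klre1, -0.81 for Klrc2 and -2.70 for Klrc1. Of the 9, 4 were at least 2-fold lower under this floor (Klra7, Klrc1, Klrk1 and Klrd1), where 2.54% of 4883 genes were at least 2-fold lower and 1.62% at least 2-fold higher. Per cell of at least 5115 UMIs, the members summed to 28.1 UMIs in BTYNB and 13.7 in combination cells. Cells with RNA of another type (at least 3 keratin or 2 macrophage UMIs) or over 3 times the median UMIs made up 58 of the 644 and 27 of the 45. Without them the member ratios ran from -0.58 for Klre1 to -2.09 for Klrc1, with a median of -1.12 (Klra4 at -0.91 and Klra8 at -1.84).

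**Figure D2:**
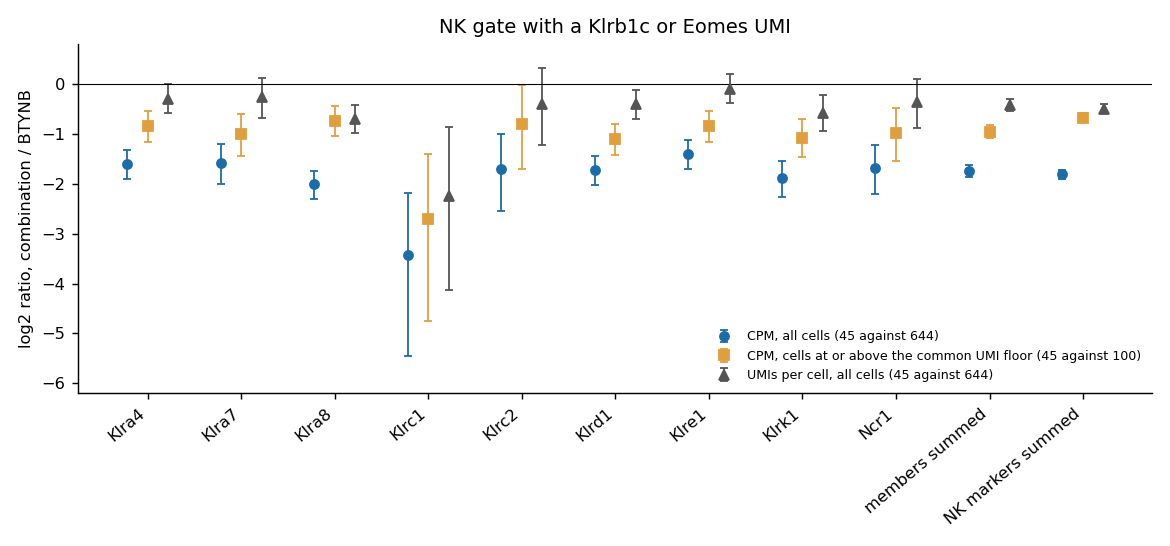
Log2 ratio of the combination to the BTYNB library (vertical axis) for each receptor gene, the 9 summed and the 12 NK markers summed (horizontal axis), in Klrb1c/Eomes-positive cells. Circles are CPM over all cells (45 against 644), squares CPM over cells of at least 5115 UMIs (45 against 100) and triangles UMIs per cell, with 95% counting intervals. Every point lies below 0, and the triangles, from -0.09 for Klre1 to -2.24 for Klrc1, are the nearest to it for each gene.

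Over the whole NK gate the differences were wider for 7 members and narrower for Klrk1 and Klrd1. Of the 9, 8 were at least 2-fold lower in the combination, against a background of 4.91% of 11232 genes lower and 1.18% higher. The median of the members was -2.66 and that of all genes -0.01. Klrc1, Klrc2 and Ncr1 again had fewer than 50 combination UMIs. Klra8 went from 269 to 30.1 CPM (log2 ratio -3.12), Klra4 from 189 to 28.5 (-2.69), Klra7 from 101 to 15.2 (-2.66), Ncr1 from 73.3 to 9.77 (-2.79) and Klrc1 from 28.7 to 1.29 (-3.70). Klrk1, from 255 to 136 CPM (-0.91, interval -1.05 to -0.78), stayed under 2-fold. In bulk sums of a gate, fewer expressing cells and less RNA per cell cannot be told apart, and 644 of 2136 BTYNB but 45 of 514 combination cells of the gate were Klrb1c/Eomes-positive.

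Detection per cell gave the same order of libraries once depth was equal. Unthinned, the shares of Klrb1c/Eomes-positive cells with a UMI were 53.1% and 53.3% for Klra4 (BTYNB, then combination), 45.7% and 44.4% for Klra7, and 53.3% and 44.4% for Klra8. For Klrd1 they were 85.1% and 80.0%, for Klre1 81.1% and 68.9%, for Klrk1 77.8% and 62.2%, for Ncr1 55.6% and 44.4%, for Klrc2 34.5% and 28.9%, and for Klrc1 23.1% and 6.67%. In tumour cells, which should lack these genes, each member had a UMI in 0.757% of cells or fewer at medians of 15342 and 11569 UMIs. Thinned to 1000 UMIs a cell, Klra4 was found in 40.7% and 21.5% of cells, Klra8 in 44.0% and 21.8%, Klrd1 in 57.2% and 24.9% and Ncr1 in 27.8% and 9.34%. Klrc1 was found in 10.6% of thinned BTYNB and 1.34% of thinned combination cells.

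The Ly49 genes were read in about as many cells as lacked them but at several UMIs where present. A cell without a UMI may hold RNA that was not read, and 18 of the 644 BTYNB cells had no member UMI. An all-or-none pattern is therefore not shown by these counts. Among BTYNB cells with a UMI, Klra8 had a median of 6 and a highest value of 40, Klra4 a median of 4 and a highest of 24, and Klra7 a median of 3 and a highest of 18. Klrc1 and Klrc2 each had a median of 1 UMI in the cells with any. A Klrb1c/Eomes-positive cell carried a median of 5 of the 9 members in the BTYNB library, ranging from 0 to 9, and of 4 in the combination library, from 0 to 8.

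Counting the 3 Ly49 genes per cell showed more cells at both ends than their single shares multiply to. In the BTYNB library 139 cells (21.6%) had none, 161 (25.0%) had 1, 214 (33.2%) had 2 and 130 (20.2%) had all 3. Multiplying the single shares gives 11.9%, 37.1%, 38.1% and 12.9%. Among cells above the median depth the shares were 19.3%, 23.3%, 32.3% and 25.2%, beside products of 9.44%, 33.9%, 40.5% and 16.1%. In the combination library 13, 9, 14 and 9 of the 45 cells had 0, 1, 2 and 3 of the genes. The products take all cells as alike, whereas 18 of the BTYNB cells had no member UMI and 25.0% had a Trdc UMI. Over the whole, more mixed NK gate, the thinned Klra4 and Klra8 ratio to the product was 4.22. The part of mixing in these shares and in the pairs below was not tested.

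**Figure D3:**
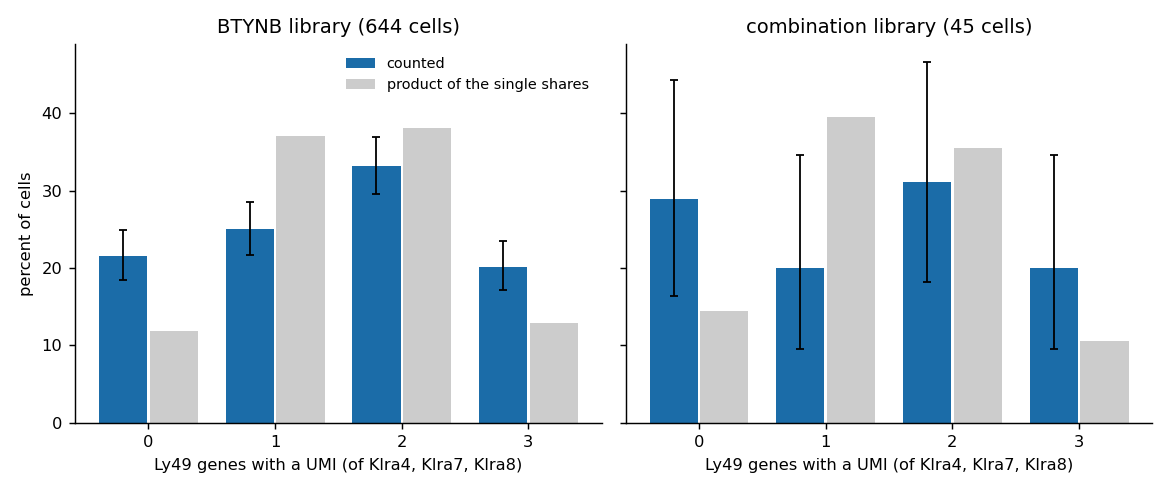
Percent of Klrb1c/Eomes-positive cells (vertical axis) with a UMI of 0, 1, 2 or 3 of Klra4, Klra7 and Klra8 (horizontal axis), in the BTYNB library (left, 644 cells) and the combination library (right, 45 cells). Blue bars are counted cells with exact binomial 95% intervals, and grey bars are the product of the single-gene shares. Blue bars exceed grey at 0 and at 3 genes and fall short at 1 in both panels, by 21.6% against 11.9% at 0 in the BTYNB library.

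By pairs, Klra4 and Klra8, both activating receptors, had the highest ratio among the Ly49 genes. They were found together in 236 of the 644 BTYNB cells, 36.6% beside a product of 28.3%, a ratio of 1.30. The ratio was 1.31 and 1.28 among the shallower and the deeper cells, divided at the median UMI count, and 1.40 after thinning. Klra4 with Klra7 gave 1.20 and Klra7 with Klra8 gave 1.16. No stretch of 50 bases in the last 500 bases of the GENCODE M21 transcripts of these 3 genes was shared between them. Klra7, Klra8 and Klra4 did share 22.1%, 13.1% and 4.66% of such stretches with other Ly49 genes (Klra13-ps, Klra9 and Klra1), so reads of these families are uncertain to that extent.

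NKG2A ran the other way. Klrc1 and Klra4 were found together in 47 cells, 7.30% beside a product of 12.3% and a ratio of 0.59, which was 0.53 among shallower and 0.62 among deeper cells. With Klra8 it shared 56 cells at a ratio of 0.71 (0.65 and 0.74 on either side of the median depth), and with Klra7 the ratio was 0.94. Klrc1 and Ncr1 shared 109 cells at a ratio of 1.32, and Klrc1 and Klrc2 shared 61 at 1.19. The last pair is uncertain, since 39.5% of the stretches of Klrc1 also occur in Klrc2. The remaining pairs lay between 0.96 and 1.13.

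**Figure D4:**
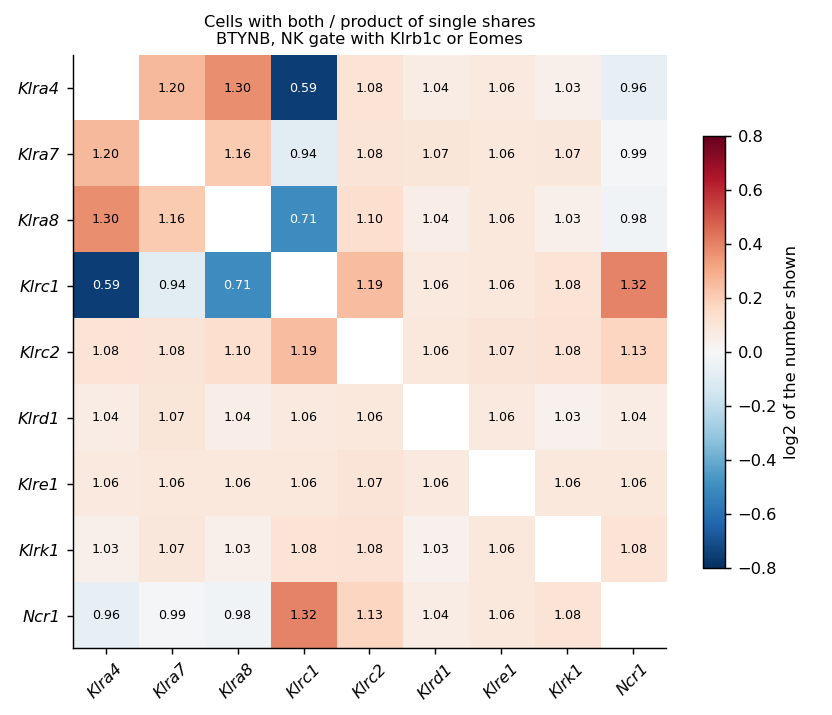
Map of the 9 receptor genes against each other in the 644 Klrb1c/Eomes-positive cells of the BTYNB library. Each square gives the share of cells with UMIs of both genes over the product of their single shares, coloured by its log2. The Ly49 block at the upper left is red (1.16 to 1.30), Klrc1 with Klra4 (0.59) and Klra8 (0.71) is blue, and most other squares are near 1.

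Cells without any of the 3 Ly49 genes were set beside those with at least 1, a split chosen after the pairs had been seen. In the BTYNB library 139 cells without had a median of 2459 UMIs and 505 cells with had 2877. Klrc1 was at 192 CPM in the former and 88.9 in the latter, a log2 ratio (with over without) of -1.10 (-1.48 to -0.74), and 37.4% and 19.2% of cells had a UMI. Klrc2 was at 104 and 128 CPM (0.30, interval -0.13 to 0.76). The other members were closer: Klrd1 at 0.33, Klre1 at 0.25, Klrk1 at 0.13 and Ncr1 at -0.22. Outside the receptors, Il7r, the interleukin-7 receptor chain, was at 138 CPM without and 30.2 with Ly49 (-2.16, interval -2.72 to -1.67), the chemokine receptor Cxcr6 at 26.0 and 2.56, the proliferation gene Mki67 at 324 and 200.3, and granzyme B (Gzmb) at 148 and 239. Gzma, granzyme A, was at 1721 and 1654 CPM, and the integrin gene Itga1 at 88.0 and 98.1. The T-cell receptor delta gene Trdc moved with the split, at 54.0 CPM without and 108 with Ly49 (0.99, interval 0.42 to 1.64). Eomes was at 398 and 530.5 CPM (0.41). Whether the Trdc UMIs came from gamma-delta T cells was not tested. In the combination library 13 cells were without and 32 with a Ly49 UMI, and the 4 Klrc1 UMIs there are not read. Some genes went the other way than in BTYNB. Mki67 was at 172 CPM without and 440 with Ly49 (1.35, interval 0.72 to 2.05). Gzmb was at 164 and 27.7 (-2.53, interval -3.94 to -1.36), with UMIs in 7.69% of the 13 cells. Gzma was at 28.6 and 620 CPM (4.39). Others kept the BTYNB direction, among them Klrd1 (1.44), Klrk1 (1.70) and Eomes (1.08).

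The CD8 T gate of the BTYNB library read all 9 members, with the Ly49 genes and Ncr1 in few cells. In the BTYNB library Klrd1 was at 305 CPM (1182 UMIs) and had a UMI in 47.9% of 1230 cells. Klrk1 was at 63.2 CPM and in 10.1% of cells, Klre1 at 55.7 and in 8.37%, Klrc1 at 36.1 and in 8.05%, and Klrc2 at 17.8 CPM. Klra7 had 77 UMIs in 30 cells. Klra4 had 17 UMIs and Klra8 39, each in 10 cells, and Ncr1 had 15 UMIs in 3 cells. The highest count in any cell of the gate was 8 UMIs for Klra4, 17 for Klra8 and 11 for Ncr1. Whether such cells were mixed with NK cells was not tested.

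Klrb1c/Eomes-positive cells exceeded CD8 T cells for all 9 members in the BTYNB library, by log2 ratios of 7.14 for Klra4, 6.58 for Klra8, 5.88 for Ncr1, 4.26 for Klra7, 3.54 for Klre1, 3.25 for Klrk1, 2.73 for Klrc2, 1.58 for Klrc1 (1.31 to 1.91) and 1.42 for Klrd1 (1.32 to 1.53). CD94 and NKG2A were thus the receptors whose levels were nearest in the 2 cell classes. With mixed cells left out of both gates, the ratios were higher, at 8.20 for Klra4, 7.80 for Klra8 and 8.43 for Ncr1. In the combination library the ratio was 1.03 for Klrd1 and -1.30 for Klrc1, and the Klrc1 interval of -3.40 to 0.20 holds 0. Klra4, Klra8 and Ncr1 had 0 UMIs in the 94 combination CD8 T cells, where the set floor of 3 UMIs is 3.86 CPM.

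Between libraries the direction in CD8 T cells depended on the scale. Their median was 2333.5 UMIs in the BTYNB and 6981.5 in the combination library, a depth that UMIs per cell do not correct for. In CPM, 6.8% of 8644 genes were at least 2-fold lower in the combination and 7.42% at least 2-fold higher. Of the 9 members 6 reached 50 UMIs, 4 of them at least 2-fold lower (median -1.09), but 5 of the 6 had under 50 UMIs in the combination library and passed through BTYNB, so nothing is read from that count. Klrd1 went from 305 to 121 CPM (-1.33, interval -1.65 to -1.03), Klrk1 from 63.2 to 29.6 (-1.07) and Klrc1 from 36.1 to 24.4 (-0.54, interval -1.34 to 0.13). Per cell the direction turned for Klrd1, Klrk1, Klrc1, Klrc2 and Klre1, but not for Klra7 (77 and 2 UMIs in all), which stayed lower at -1.56 with an interval of -4.63 to 0.34. Klrd1 stood at 0.961 UMIs in BTYNB and 1.0 in combination cells (0.06, interval -0.26 to 0.36), Klrk1 at 0.199 and 0.245 (0.30), Klrc1 at 0.114 and 0.202 (0.83) and Klre1 at 0.176 and 0.309 (0.81, interval 0.20 to 1.38). Among cells of at least 5115 UMIs (94 against 122), the log2 CPM ratios were -0.73 for Klrd1, -1.29 for Klrk1, -1.08 for Klre1, -0.89 for Klrc2, -0.54 for Klrc1 and -2.18 for Klra7. The share of all genes that were lower was not taken under this floor, so no count of members is read. Macrophage markers summed to 143 CPM in the CD8 T cells of the BTYNB library and to 581 CPM in those of the combination library, and their part was not tested.

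Within the BTYNB CD8 T gate the members went with Ccl5, a chemokine gene of effector and memory cells. Of the 1230 cells, 770 had a Ccl5 UMI (median 2618 UMIs per cell) and 460 had none (median 1799). Klrd1 had 970 UMIs in the former and 212 in the latter, a log2 CPM ratio of 1.02 (0.81 to 1.25). The ratio was 2.41 for Klrk1 (227 and 18 UMIs), 2.40 for Klrc1 (130 and 10) and 3.05 for Klre1 (206 and 10). Klra7 had 76 of its 77 UMIs and Ncr1 all 15 in the cells with Ccl5. The Ncr1 UMIs lay in 3 cells, with up to 11 in a cell. In the combination library Klrc1 had 19 UMIs with and 0 without Ccl5, and Klre1 28 and 1.

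Pairs within CD8 T cells also lay above the product, from small numbers, and are not compared with those in Klrb1c/Eomes-positive cells. The highest ratio that a pair can reach falls as its single shares rise. In the BTYNB library Klrk1 had no UMI in 22.2% of Klrb1c/Eomes-positive cells and in 89.9% of CD8 T cells. Klrc1 and Klrk1 shared 38 BTYNB cells at a ratio of 3.81, Klrk1 and Klre1 37 at 3.56, and Klra7 and Klrk1 16 at 5.29. Klrc1 and Klrc2 shared 22 at 5.06, with the shared stretches named above.

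NKG2D and CD94 RNA were also read in cells that met the dendritic gate (at least 2 UMIs of Flt3, Xcr1, Clec9a and Cd209a together, with no Csf1r). In 1008 BTYNB cells Klrk1 was at 154 CPM, beside 144 CPM for the 647 cells of the combination library (log2 ratio -0.10, interval -0.24 to 0.04), and 49.9% and 57.0% of cells had a UMI. Klrd1 was at 133 and 69.7 CPM (-0.92, interval -1.12 to -0.75). The other 7 members were at 9.49 CPM or less in both. In the dendritic cells of the control and anti-PD-1 libraries Klrk1 was at 66.0 and 63.3 CPM.

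Dividing the gate by its own markers, a split made after these values were seen, parted the receptors. In cells with Xcr1 or Clec9a and no Cd209a, markers of cross-presenting dendritic cells, Klrk1 was at 152 CPM in BTYNB and 148 in combination cells and Klrd1 at 38.3 and 32.7. In cells with Cd209a and neither of the others, Klrk1 was at 169 and 148 CPM and Klrd1 at 330 and 185. Klrd1 was thus lower in the Xcr1 or Clec9a cells by log2 ratios of -3.07 and -2.46, and Klrk1 differed by -0.16 and -0.00. Tumour cells, which should lack both genes, held them at 0.597 CPM or less in these libraries, macrophages held Klrk1 at 31.4 and 27.5 CPM, and B cells held it at 8.54 and 8.75.

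**Figure D5:**
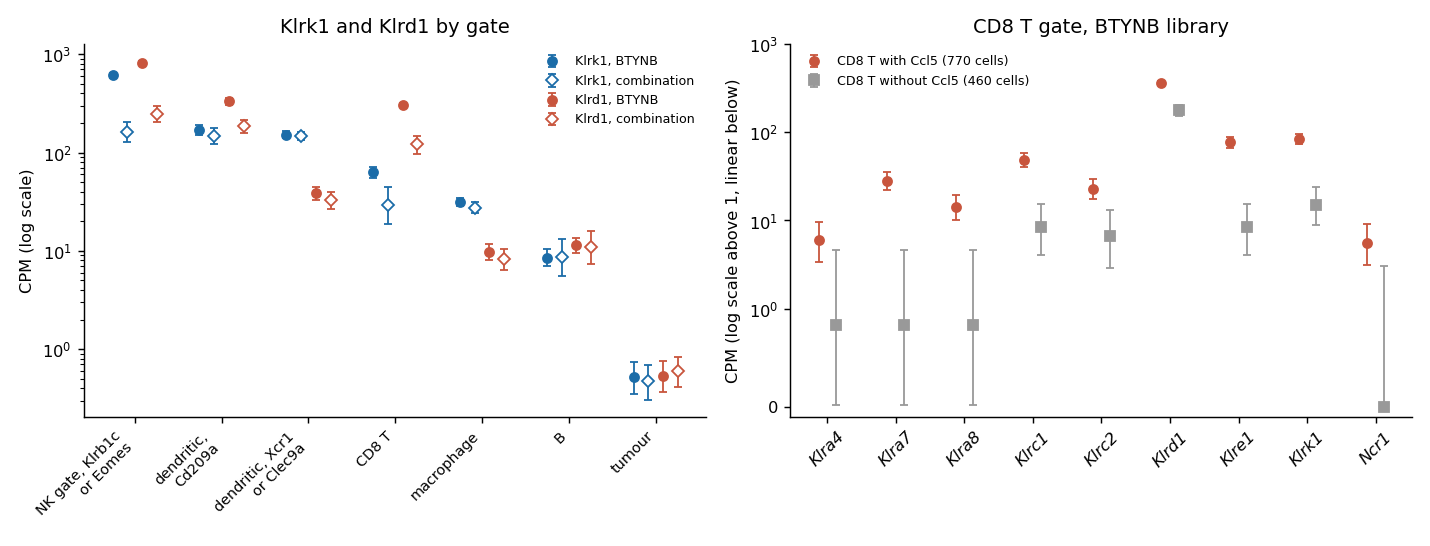
Left, CPM (log axis) of Klrk1 (blue) and Klrd1 (red) by gate in the BTYNB (filled) and combination (open) libraries. Right, CPM (log axis above 1, linear below) of the 9 genes in BTYNB CD8 T cells with (circles, 770 cells) and without (squares, 460 cells) a Ccl5 UMI, with 95% Poisson intervals in both panels. Klrk1 is level over both dendritic gates (148 to 169 CPM) while Klrd1 is not (32.7 to 330 CPM), and every circle lies above its square.

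The other genes of these pathways were read from lists. Of 18 other NK lectin genes, 8 reached 50 UMIs in Klrb1c/Eomes-positive cells and were at least 2-fold lower in the combination (11.7% of all genes), but 7 of the 8 had under 50 UMIs in the combination cells and passed through BTYNB, so nothing is read from the count. Among them were Klra9 (302 and 107 CPM), Klra3 (162 and 37.3), Klrb1a (102 and 14.0) and Klri2, a partner chain of Klre1 (457 and 201). Of 12 adaptors and kinases tested, 8 were at least 2-fold lower beside the same 11.7%, of which 0 were left among cells of at least 5115 UMIs and 2 without mixed cells. Of the 12, 9 had under 50 UMIs in the combination cells. Hcst (DAP10) was at 222 and 53.7 CPM, Fcer1g at 1214 and 441, Cd247 at 101 and 25.7 and Lck at 368 and 154, whereas Vav1 was at 68.8 and 65.3. None of the 3 phosphatases passed 2-fold in either direction: Ptpn6 was at 84.3 and 53.7 CPM, Ptpn11 at 48.4 and 56.0 and Inpp5d at 130.3 and 77.0.

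Ligands were read in tumour cells, gated by at least 3 keratin UMIs and no Ptprc. The class I genes H2-K1 and H2-D1 were at 2881 and 2073 CPM in the BTYNB library and 2931 and 2210 in the combination library. Some Ly49 receptors bind class I molecules. Whether those of Klra4, Klra7 and Klra8 bind these was not tested, so the levels are not read as their ligand levels. H2-K1 was at 2112 CPM in control and 2806 in anti-PD-1 tumour cells. H2-T23, which encodes the NKG2A ligand Qa-1, was at 114, 94.5, 138 and 106 CPM in control, BTYNB, anti-PD-1 and combination tumour cells. The NKG2D ligand genes Raet1e and Ulbp1 were at 28.0 and 15.2 CPM in tumour cells of the BTYNB library, beside 31.4 and 17.2 in those of the combination library. Raet1d, of the same group, was at 2.85 and 3.85 CPM, H60b at 0.682 CPM or less and H60c at 0.156 CPM or less over the 4 libraries. In the NK gate itself, 6 of 12 ligand genes had enough UMIs, none differed 2-fold between the BTYNB and combination libraries, and their median log2 ratio was 0.01.

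The genes whose level followed the summed members most closely over 26 gate and library groups were Cd7 (Pearson r of log2 CPM 0.902), Padi2 (0.876), Fyn (0.873), Adgrg5 (0.868), Tg (0.863), Epsti1 (0.860), Dpp4 (0.857), Nup210 (0.854), Crtam (0.853) and Gpr171 (0.850). They were taken from 10537 candidates. The groups share libraries and differ in depth, so the values are a description.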

How the data were processed

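The data are single-cell RNA counts of mouse ascites cells from 4 libraries (BD Rhapsody HT), 1 per treatment. The authors depleted dead cells, sequenced whole-transcriptome libraries and deposited raw UMI counts per gene and cell, made with the BD Rhapsody pipeline for sequence analysis (v2.0). The build named in the submitters' processing notes is GRCm39. The deposited matrices are filtered to called cells, and the authors marked multiplets in later steps that the matrices do not carry. No multiplet caller was run here. Gates and the removal of mixed cells stand in for it.

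Cells with fewer than 200 genes or over 33% mitochondrial UMIs (genes with the prefix mt-, in place of MitoCarta) were left out, which removed 24 to 633 cells per library for mitochondrial content and 331 BTYNB cells for few genes. UMIs were summed per gate and divided by all UMIs of its cells (CPM, with exact Poisson intervals). Shares have Clopper-Pearson intervals. Log2 ratios used a pseudocount of 1 CPM, so that low genes are understated, with conditional binomial intervals. Thinning gives the expected share at 1000 UMIs a cell. Genes with at least 50 UMIs over both libraries were compared, a filter that a gene high in 1 library alone can pass. With 1 library per group there is no test. The scripts were tested on simulated data.

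The members, gates and gene lists were chosen with earlier results of these data known. Genes named are the 9 members, genes of the lists with at least 10 UMIs in the gate, and the 10 genes most correlated with the summed members. The Ly49 and dendritic splits and the scale of UMIs per cell were chosen after the values had been seen. Promoters are RefSeq (GRCm38.p6, 8 of 9 members matched by symbol), a different build from that of the counts. Python 3.11.15, numpy 2.4.6, scipy 1.17.1, pandas 2.3.3 and biopython 1.88 were used.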

Additional observations from a re-analysis of the deposited data

Results flagged for a closer look

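The control and anti-PD-1 libraries were left out of the comparisons because few lymphocytes were read in them, yet several receptors were counted there above the set floor of 3 UMIs. In the 12 Klrb1c/Eomes-positive control cells there were 16 UMIs of Klra7 (in 3 cells), 9 of Klra8 (3 cells), 14 of Klrk1 (5 cells), 17 of Klrd1 (7 cells), 13 of Ncr1 (8 cells) and 21 of Klre1 (6 cells). In the 6 such anti-PD-1 cells there were 4 UMIs of Klra8 (2 cells), 5 of Klrk1 (2 cells), 6 of Klrd1 (4 cells), 6 of Ncr1 (3 cells) and 8 of Klre1 (4 cells). Klra4 had 3 UMIs in each set.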

How the results depend on the processing

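With 1 library per group no library can be left out, and the values rest on cell counts, depth and gates. No paired analysis was possible because each group is 1 library. The lowest UMI count of a deposited cell differs between the libraries. All 9 member ratios were below 0 under each of 12 settings (Klrk1 from -1.89 to -0.26), but these settings reuse the same cells. Some of them used only the Klrb1c/Eomes-positive cells, the source of the -1.89, and some were added after the data were seen. The share of all genes below 0 was not taken under each setting, so the count is not read as a result about the members.

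The gate and the UMI floor both moved the values. Needing a Klrb1c or Eomes UMI gave NK shares of 3.52% (BTYNB) and 0.639% (combination), a member median of -1.70 between libraries and 3.54 against CD8 T cells, median thinned detection of 40.7% and 17.5%, a Klra4 and Klra8 ratio of 1.40, and 8 lower adaptors. Leaving mixed cells out gave shares of 10.1% and 5.4%, medians of -3.22 and 2.34, and detection of 14.5% in BTYNB. The common floor gave a BTYNB share of 13.3%, medians of -1.12 and 1.16, a Ccl5 median of 4.16, detection of 4.24%, a pair ratio of 11.6, 4 other lectins and 0 adaptors lower, and -0.13 for Klre1 against CD8 T cells. Both of these with the Klrb1c or Eomes UMI were added after the data were seen. With the floor they gave shares of 1.81% and 0.639%, medians of -0.99 (4 members past 2-fold) and 2.46, detection of 30.7% and 17.5%, a pair ratio of 1.62, and 5 lectins and 0 adaptors. Without mixed cells they gave 3.21% and 0.256%, medians of -1.12 and 3.91, detection of 42.3% and 24.0%, a pair ratio of 1.36, and 2 adaptors and 1 phosphatase.

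A mean of per-cell CPM gave medians of -3.26 and 2.59 and 2 lower members in CD8 T cells. A pseudocount of 10 CPM gave -2.06 and again 2 CD8 members. CPM without mitochondrial and ribosomal genes gave 1.82 against CD8 T cells. UMIs per cell, added after the data were seen, gave -2.07 and 2.62, and turned the CD8 T median between libraries to 0.24 with 1 member past 2-fold, with Klrc2 at 0.18, Klrk1 at 0.30 and Klrd1 at 0.057. Detection without thinning was 17.4% and 4.47%, and at 500 UMIs 9.11% in BTYNB. The causes were not tested.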

Other observations

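The gamma-delta T gate of the BTYNB library (140 cells with Cd3 and Trdc UMIs and no Cd4 or Cd8) read all 9 members: Klrd1 at 336 CPM (284 to 394), Klrk1 at 241, Klre1 at 144, Klrc1 at 104, Klra7 at 81.1, Ncr1 at 47.3, Klra4 at 40.5, Klrc2 at 38.3 and Klra8 at 27.0. Klrc1 had a UMI in 18.6% of these cells and Klra4 in 2.14%, so the Klra4 level rests on few cells. Whether such cells were mixed with NK cells was not tested. The same gate held 6 cells in the combination library.

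Klra2, an inhibitory Ly49 family gene outside the 9, was read in macrophages of every library, at 238 CPM in the control, 317 CPM in the BTYNB, 223 CPM in the anti-PD-1 and 260.1 CPM in the combination library.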
